A study of Mus musculus with 6 samples.

Results

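Clade B serpins are intracellular and secreted relatives of ovalbumin, and 8 of their genes were followed here in mouse back-skin epidermis: Serpinb1a, Serpinb2, Serpinb5, Serpinb6a, Serpinb6b, Serpinb7, Serpinb11 and Serpinb12. They were taken as the genes named by exactly 1 symbol on each probe set, which gave 68 of the 109751 named probe sets and 8 of the 11280 measured genes. The differences between genotypes, per gene and per probe set, were known when these genes were chosen, so their differences are given as a description with no test. A further 7 clade B genes were measured and are described after them.

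RNA came from keratinocytes of the back-skin epidermis of female mice 9.5 weeks old on a C57BL6/CBA background, with 3 wild type and 3 K14ΔNLef1 samples. The transgene is a form of the transcription factor Lef1 without its N-terminal part, the region that binds β-catenin, and it is driven by the keratin 14 promoter, which is active in basal keratinocytes. The labels call the cells unfractionated, state that RNA was extracted after cell sorting, and name the samples biological replicates. One exon array was used per sample, and such an array carries a number of probe sets for each gene.

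A serpin inhibits a protease by offering its reactive centre loop as bait: the protease cuts the loop and is trapped in a covalent complex that inactivates both molecules. Clade B members lack a classical signal peptide, and many work inside the cell. In epidermis they are part of the balance of proteases and inhibitors that governs shedding, barrier formation and inflammation. Serpinb2 inhibits plasminogen activators, Serpinb1a inhibits neutrophil elastase and related proteases, Serpinb6a inhibits cathepsin G and trypsin-like proteases, and Serpinb5, or maspin, is a serpin of keratinocytes that does not act as a classical inhibitor.

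The values below are log2 intensities, where a gene value is the mean over its probe sets, and a difference is K14ΔNLef1 minus wild type, so 1 unit is a doubling. Intensity depends on the probe, so levels are compared between arrays and not between genes. Lef1 itself was higher on every transgenic array, at 5.81, 7.02 and 6.26 in wild type against 11.11, 11.13 and 11.24 (limma adjusted p of 4.02e-04). Median array intensity was 190.2 to 199.8 in wild type and 154.2, 190.0 and 203.2 in K14ΔNLef1 replicates 1, 2 and 3, so that transgenic replicate 1 stood apart. That array was the lowest of the transgenic arrays for 51.2% of all named probe sets. Basal keratinocyte markers averaged 10.64 to 10.71 in wild type and 10.18 to 10.61 in K14ΔNLef1, with 9 of 10 lower, 5 of 10 without overlap between genotypes, beside 18.7% of all genes, and none past the test. In the limma fit 0 of the 10 had an unadjusted p under 0.05, beside 11.8% of all genes. The samples were bulk RNA, so fewer cells of a type and less RNA per cell cannot be told apart.

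The 8 genes split evenly, with 4 higher and 4 lower in K14ΔNLef1. Their median difference was -0.09, beside -0.05 over all genes, but the median size of the difference regardless of sign was 1.43, beside 0.21 over all genes. The genotypes did not overlap in 5 of the 8 genes, beside 18.7% of all genes: 2 were higher, beside 6.91%, and 3 lower, beside 11.8%. The choice of the genes fixes these counts, and nothing is read from them.

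In the gene order of the GRCm38.p6 table, chromosome 1 carries 12 clade B genes, of which 6 were measured, in the order Serpinb5, Serpinb12, Serpinb11, Serpinb7, Serpinb2 and Serpinb8. Chromosome 13 carries 16, of which 9 were measured, with Serpinb1a and Serpinb6b at one end of the cluster and Serpinb6a at the other. Serpinb11, Serpinb7 and Serpinb2 follow each other directly in the order of clade B genes, and so do Serpinb5 and Serpinb12.

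**Figure D1:**
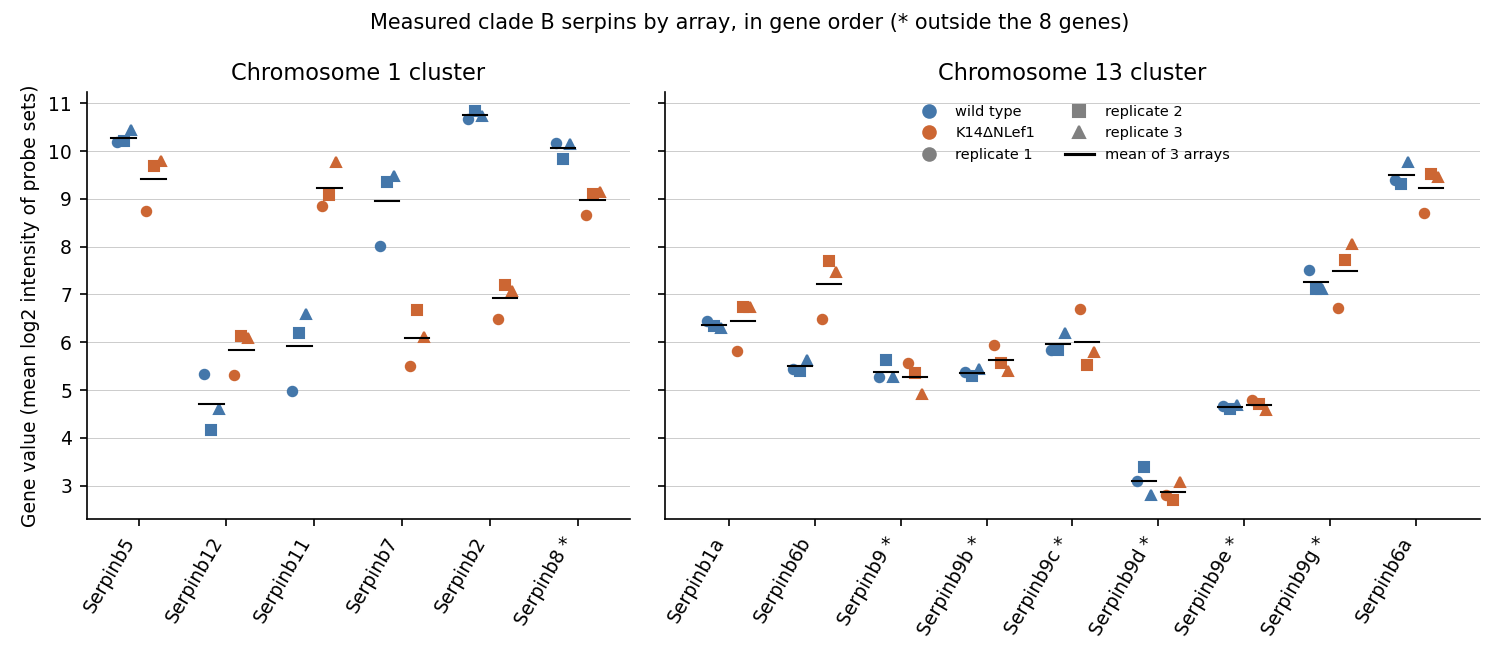
Gene value (mean log2 intensity of the probe sets, y axis) of the 15 measured clade B serpins on each array, in gene order along chromosomes 1 and 13, with wild type in blue, K14ΔNLef1 in orange, a symbol per replicate and a black line at the mean of 3 arrays. Serpinb11 stands higher and its neighbours Serpinb7 and Serpinb2 lower on all 3 transgenic arrays, while Serpinb6a and Serpinb1a overlap between genotypes.

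The chromosome 1 neighbours Serpinb11, Serpinb7 and Serpinb2 had the largest differences of the 8. Their sequences upstream of the RefSeq start are shown because these genes lie side by side and differ in direction. Each run is 250 bases on the plus strand of GRCm38.p6 from RefSeq, at chr1:107362064-107362313 for Serpinb11, chr1:107422439-107422688 for Serpinb7 and chr1:107511173-107511422 for the more upstream of 2 listed starts of Serpinb2. Capitals mark matches on either strand to 3 motifs: CTTTGA, a form of the core bound by Lef and Tcf factors, TGANTCA, and TATAAA, the TATA box. TGANTCA is the AP-1 site with any middle base, where the usual site has C or G.
Serpinb11: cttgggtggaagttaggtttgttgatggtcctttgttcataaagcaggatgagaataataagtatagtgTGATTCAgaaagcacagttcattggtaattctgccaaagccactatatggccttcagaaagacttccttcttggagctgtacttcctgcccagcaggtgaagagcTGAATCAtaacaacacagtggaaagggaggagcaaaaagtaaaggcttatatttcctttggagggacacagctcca
Serpinb7: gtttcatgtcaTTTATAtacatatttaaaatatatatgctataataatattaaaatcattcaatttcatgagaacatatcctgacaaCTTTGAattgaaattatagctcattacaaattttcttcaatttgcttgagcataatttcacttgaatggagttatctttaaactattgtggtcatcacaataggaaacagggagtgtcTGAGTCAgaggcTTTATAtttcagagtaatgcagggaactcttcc
Serpinb2: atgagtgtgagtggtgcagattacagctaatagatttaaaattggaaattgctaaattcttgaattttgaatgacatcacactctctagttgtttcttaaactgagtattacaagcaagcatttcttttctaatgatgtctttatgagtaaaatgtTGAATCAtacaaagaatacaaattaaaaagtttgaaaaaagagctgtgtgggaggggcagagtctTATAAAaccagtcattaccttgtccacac

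The letters CTTTGA matched once among them, 163 bases before the start of Serpinb7. They occur in 13.8% of all 32851 promoter windows of this length. CTTTGT, another form of the Lef and Tcf core, was not searched. Its letters stand unmarked in the Serpinb11 run and, on the other strand, in the Serpinb2 run. TGANTCA matched in all 3, beside 6.75% of all windows. Serpinb11 held 2 matches (181 and 76 bases before the start), Serpinb7 1 (45 bases) and Serpinb2 1 (94 bases). The middle base was G, as in the usual AP-1 site, in Serpinb7 only, and A or T in Serpinb11 and Serpinb2. On either strand, the TATA letters lay 239 and 33 bases before the Serpinb7 start and 29 bases before that of Serpinb2. Both Serpinb7 matches read TTTATA, so TATAAA lies on the strand opposite to the gene, while the Serpinb2 match reads TATAAA. The Serpinb11 window held no match on either strand, beside 12.4% of all windows with one. Over the 7 of the 8 genes with a listed promoter, 6 of 10 windows held TGANTCA, 5 held the TATA letters and 1 CTTTGA. The TGANTCA matches were in Serpinb2, Serpinb5, Serpinb7, Serpinb11 and Serpinb12. The windows of both Serpinb2 starts overlap, and each of its matches, to TGANTCA and to TATAAA, is counted in both. These matches are a description of letters in the windows: Serpinb11, which was higher, and Serpinb7 and Serpinb2, which were lower, all held TGANTCA.

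Serpinb2, the inhibitor of urokinase and tissue plasminogen activator also called PAI-2, had the most negative difference of all 11280 genes. Its wild type values were 10.67, 10.83 and 10.74, and its transgenic values 6.48, 7.20 and 7.08. The wild type arrays lay close together and every transgenic array was far below them. The difference was -3.83 (SE 0.22), a level 14.2-fold lower, from 10.75 ± 0.08 to 6.92 ± 0.39 (SD, n = 3). All 8 probe sets were lower without overlap, by differences from -4.66 to -3.26. Leaving out any array in turn kept the difference between -3.97 and -3.61.

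Serpinb7, also called megsin, whose human counterpart is mutated in a recessive palmoplantar keratosis, was lower as well. Its gene values were 8.02, 9.34 and 9.49 in wild type and 5.51, 6.68 and 6.11 in K14ΔNLef1. The groups did not overlap, but wild type replicate 1 lay well under the other wild type arrays. The difference was -2.85 (SE 0.43), a level 7.20-fold lower, with an SD in wild type of 0.81 that exceeded that of 99.1% of all genes. Leaving out an array in turn gave differences from -3.31 when wild type replicate 1 was dropped to -2.55 when K14ΔNLef1 replicate 1 was dropped.

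The probe sets of Serpinb7 did not move alike. Of the 9, 8 were lower without overlap, with differences from -4.39 to -2.37. The remaining one, probe set 4899731, read 10.05, 10.72 and 10.46 in wild type and 10.80, 10.07 and 10.51 in K14ΔNLef1. Its values overlapped fully, and its difference was 0.05. Without it the gene difference was -3.21. Where this probe set lies in the gene was not analysed here, and why it differs from the other 8 was not tested.

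Serpinb11, an inhibitor of trypsin-like proteases in the mouse and the immediate neighbour of Serpinb7, differed in the opposite direction. It stood at 4.97, 6.20 and 6.59 in wild type and at 8.85, 9.08 and 9.78 in K14ΔNLef1. Even the lowest transgenic value was well above the highest wild type value. The difference was 3.31 (SE 0.42), a level 9.94-fold higher, and rank 5 among all genes ordered from the most positive difference. All 9 probe sets were higher without overlap, by 2.03 to 3.88. With an array left out, the difference ranged from 2.84 (without wild type replicate 1) to 3.65 (without wild type replicate 3).

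**Figure D2:**
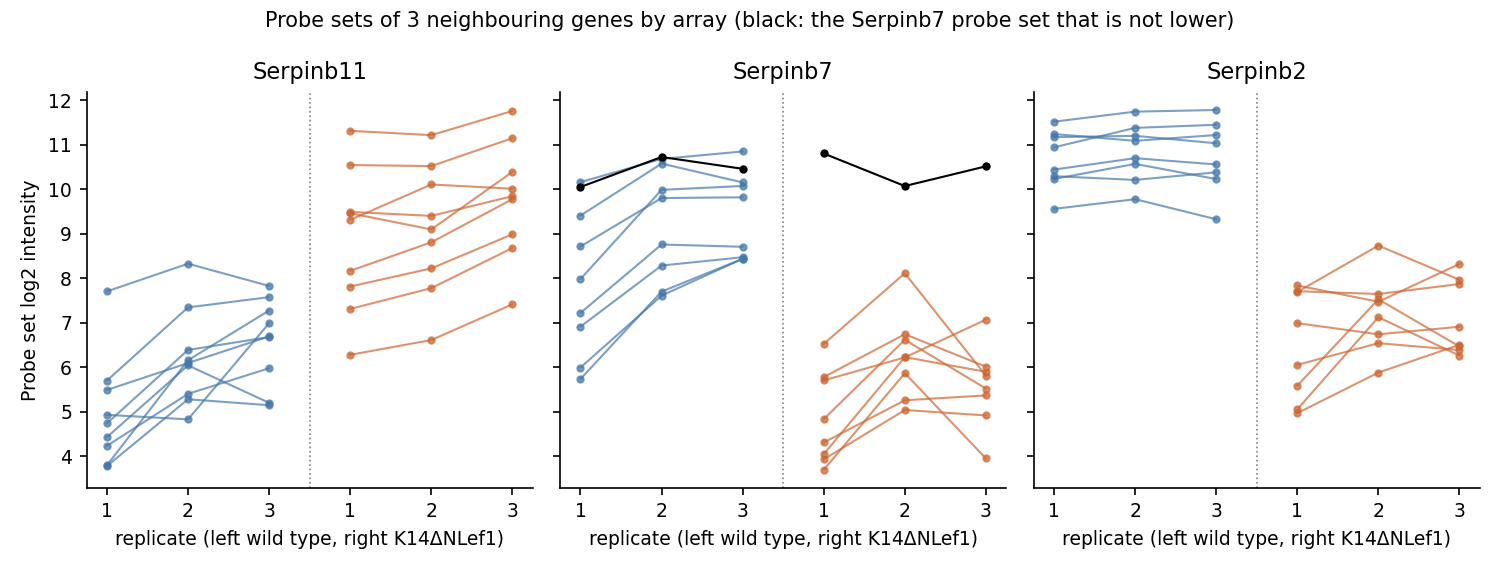
Log2 intensity (y axis) of each probe set of Serpinb11, Serpinb7 and Serpinb2 on the wild type arrays (left, blue) and K14ΔNLef1 arrays (right, orange), with a line joining the values of a probe set within a genotype and no order implied between replicates. All 9 Serpinb11 probe sets lie higher in K14ΔNLef1, all 8 of Serpinb2 lie lower, and of the 9 of Serpinb7 the black one, 4899731, lies between 10.05 and 10.80 on every array.

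The opposite directions of Serpinb11 and Serpinb7 appear within each array. In wild type, the log2 signal of Serpinb11 minus that of Serpinb7 came to -3.04, -3.14 and -2.89; in K14ΔNLef1 it came to 3.34, 2.40 and 3.66. The level of this quantity depends on the probes, but its shift of 6.16 between genotypes does not rest on how arrays were scaled. In wild type it was steady, with an SD of 0.12, although both genes varied strongly there.

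That shared variation sat in wild type replicate 1. On this array Serpinb7 was 0.93 and Serpinb11 0.95 under their wild type means, and it was the lowest wild type array for 9 of 9 Serpinb7 probe sets and 8 of 9 Serpinb11 probe sets. Over all named probe sets it was the lowest in 32.5%. Serpinb12 differed the other way there, 0.63 above its wild type mean, with 8 of 9 probe sets highest on that array. Serpinb2, next to Serpinb7, was only 0.08 under its mean on the same array. Neighbours in this cluster thus did not all deviate together on that array.

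Serpinb12, a widely expressed inhibitor of trypsin-like proteases, was higher in K14ΔNLef1 on average, with overlap. It read 5.34, 4.17 and 4.61 in wild type and 5.32, 6.13 and 6.08 in K14ΔNLef1. Wild type replicate 1 lay just above K14ΔNLef1 replicate 1, and the other values separated. The difference was 1.14 (SE 0.34), a level 2.20-fold higher, with 8 of 9 probe sets higher and 4 without overlap. Without K14ΔNLef1 replicate 1 the difference was 1.40 and the groups no longer overlapped. The wild type signals of Serpinb12, Serpinb6b and Serpinb11 were dim, with means above those of 2.87%, 9.57% and 16.1% of genes, a rough guide since intensity depends on the probe. The file gives no detection call, so their level in wild type, and with it the exact fold of each, was not established. The same limit holds for the level of Serpinb7 in K14ΔNLef1, where its mean was above those of 17.7% of genes, and for its fold.

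Serpinb5, at the end of the chromosome 1 cluster next to Serpinb12, was lower. Its values were 10.19, 10.20 and 10.45 in wild type and 8.75, 9.69 and 9.79 in K14ΔNLef1. The groups did not overlap, but K14ΔNLef1 replicate 1 lay almost a unit under the other transgenic arrays. The difference was -0.87 (SE 0.29), a level 1.83-fold lower, and all 10 probe sets were lower, 8 without overlap. Without K14ΔNLef1 replicate 1 it was -0.54. Basal markers were also lowest on that array, at 10.18, and suprabasal keratinocyte markers too, at 7.60 against 8.31 and 8.49 on K14ΔNLef1 replicates 2 and 3 and 8.16 to 8.34 in wild type, with 6 of 9 lower. Their part in the Serpinb5 difference was not tested.

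**Figure D3:**
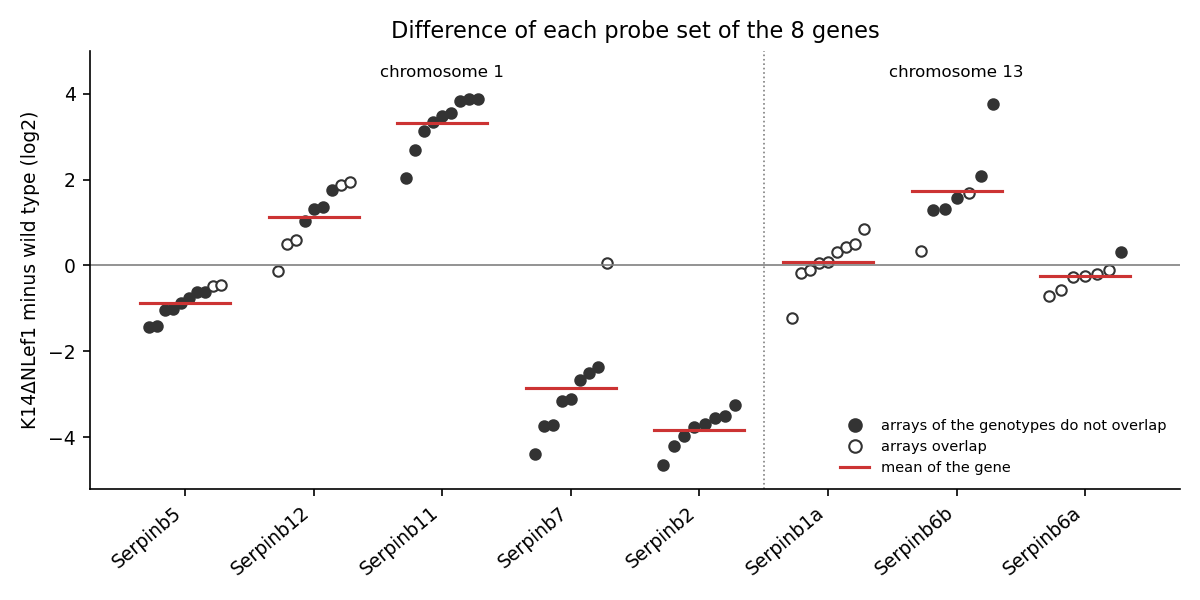
Difference of each probe set (K14ΔNLef1 minus wild type, log2, y axis) for the 8 genes, with filled points where the arrays of the genotypes do not overlap, open points where they do, and a red line at the mean of the gene. The probe sets of Serpinb2 lie between -4.66 and -3.26 and those of Serpinb11 between 2.03 and 3.88, while those of Serpinb1a scatter around 0.

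On chromosome 13, Serpinb6b was higher and the closely related Serpinb6a was not. Serpinb6b read 5.45, 5.40 and 5.64 in wild type and 6.48, 7.70 and 7.46 in K14ΔNLef1. All transgenic arrays were above all wild type arrays, with K14ΔNLef1 replicate 1 about a unit under the other transgenic arrays. The difference was 1.72 (SE 0.31), a level 3.30-fold higher, with 7 of 7 probe sets higher and 5 without overlap. One probe set, 4762162, had the largest difference, 3.77, from values of 2.11, 4.65 and 4.56 in wild type to 6.52, 9.52 and 6.59. Without it the gene difference was 1.38, and without K14ΔNLef1 replicate 1 it was 2.09.

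T cell and Langerhans cell markers followed the same order as Serpinb6b over the transgenic arrays, lowest in replicate 1 and highest in replicate 2. This order was not particular to Serpinb6b: Serpinb2, Serpinb6a, Serpinb7 and Serpinb12 had it too. Serpinb1a, Serpinb5 and Serpinb11 were highest in replicate 3. T cell markers, with 9 of 11 higher, averaged 7.42, 8.59 and 8.02 on K14ΔNLef1 replicates 1, 2 and 3 and 7.30 to 7.80 in wild type. Langerhans cell markers, with 8 of 9 higher, averaged 6.95, 7.97 and 7.39 and 6.42 to 7.13 in wild type. No gene of either list passed the limma test, and 2 of 11 T cell and 2 of 9 Langerhans cell genes had an unadjusted p under 0.05, beside 11.8% of all genes. On K14ΔNLef1 replicate 1, Serpinb6b was above all wild type arrays. The T cell and Langerhans cell means on that array lay within their wild type ranges. The part of these cells in the Serpinb6b difference was not tested.

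Serpinb6a read 9.39, 9.31 and 9.77 in wild type and 8.71, 9.51 and 9.47 in K14ΔNLef1. Only K14ΔNLef1 replicate 1 lay outside the wild type range. Its difference of -0.26 (SE 0.26) became -0.00 without that array, and 1 of 7 probe sets, a higher one, had no overlap. Within each array, Serpinb6b minus Serpinb6a was -3.94, -3.91 and -4.13 in wild type and between -2.23 (replicate 1) and -1.81 (replicate 2) in K14ΔNLef1, a shift of 1.98 that was narrower in spread than either gene on the transgenic arrays (SD 0.21, against 0.65 for Serpinb6b and 0.45 for Serpinb6a).

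Serpinb1a read 6.44, 6.34 and 6.30 in wild type and 5.82, 6.74 and 6.74 in K14ΔNLef1. The transgenic values lay on both sides of the wild type values. Its difference was 0.08 (SE 0.27), none of 9 probe sets was free of overlap, and 6 were higher. Without K14ΔNLef1 replicate 1 the difference was 0.38, and with the median of its probe sets in place of the mean it was -0.34, so no direction is given. Clade B serpins include families with closely similar copies, among them Serpinb1 and Serpinb6 on this chromosome, and the values of their members are uncertain where probes can bind a copy.

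**Figure D4:**
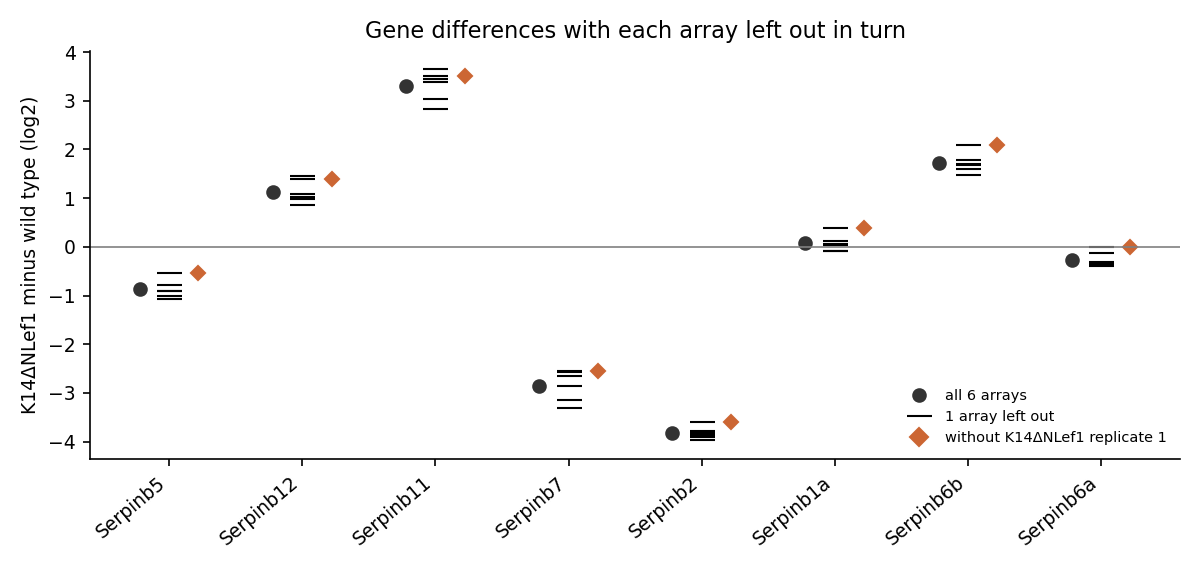
Difference of each of the 8 genes (K14ΔNLef1 minus wild type, log2, y axis) with all 6 arrays (circle), with each array left out in turn (dashes) and without K14ΔNLef1 replicate 1 (diamond). Serpinb2, Serpinb7, Serpinb11 and Serpinb6b keep their direction and stay at or beyond 1.48 in size, and Serpinb6a moves to -0.00 without that array.

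Over the 68 probe sets, 32 were higher and 36 lower in K14ΔNLef1, and 43 had no overlap between genotypes, beside 14.6% of all named probe sets (5.11% higher and 9.46% lower). The spread of the differences among the probe sets of a gene was smallest in Serpinb6a (SD 0.33), Serpinb5 (SD 0.36) and Serpinb2 (SD 0.44) and largest in Serpinb7 (SD 1.27) and Serpinb6b (SD 1.05). Without K14ΔNLef1 replicate 1, 7 of the 8 genes had no overlap, beside 30.8% of all genes, and Serpinb6a was the exception.

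The genes whose centred profile over the 6 arrays lay closest to each of these neighbours were picked by the smallest root mean square difference. For Serpinb2 they were Il1r2, a decoy receptor of interleukin 1, at 0.10, Sema3d, a secreted guidance factor, at 0.22 and Il20ra, a cytokine receptor subunit, at 0.31 log2 units. Il1r2 read 10.57, 10.75 and 10.87 in wild type and 6.46, 7.33 and 7.14 in K14ΔNLef1. Serpinb7 was farther from Serpinb2, at 0.67. For Serpinb7 they were Il22ra2, a soluble receptor of interleukin 22, at 0.41, the secreted serine protease gene Prss23 at 0.45 and Fam81a at 0.52. Like Serpinb7, Il22ra2, Prss23 and Fam81a were lowest among wild type arrays in replicate 1. Il22ra2 read 7.59 there against 8.68 and 8.75, Prss23 9.46 against 10.12 and 10.29, and Fam81a 8.93 against 9.34 and 9.06. These genes were picked for likeness to Serpinb7 on the same arrays, so the shared low value is in part given by the choice. For Serpinb11 they were Tagln3, of the transgelin family, at 0.47, Fmo1, a flavin monooxygenase, at 0.51 and Igfbp2, which binds insulin-like growth factors, at 0.52. Among the other 7 of the 8 serpins the closest to Serpinb11 was Serpinb6b, at 0.97. The profiles are dominated by the difference between genotypes, so this likeness is a description over 6 arrays.

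Among the 7 other measured clade B genes none passed the test (limma), 1 had an unadjusted p under 0.05, beside 11.8% of all genes, and 1 had no overlap, beside 18.7%. That gene was Serpinb8, an inhibitor of furin that lies beyond Serpinb2 at the end of the chromosome 1 cluster. It read 10.17, 9.84 and 10.15 in wild type and 8.65, 9.10 and 9.14 in K14ΔNLef1. All transgenic values, means of 11 probe sets, lay below all wild type values. Its difference of -1.09 (SE 0.20) had a limma adjusted p of 0.0534, missing the threshold. Dropping 1 array at a time gave adjusted p from 0.0405, the only 1 of 6 fits that passed, when K14ΔNLef1 replicate 1 was dropped, to 0.251 when wild type replicate 3 was dropped. It passed at -0.98 (adjusted p of 0.0278) after arrays were set to one median and at -0.91 (0.0426) after quantile normalization. Over all alternatives run the adjusted p ranged from 0.00274 to 0.251.

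The other 6, Serpinb9, which inhibits granzyme B, and its relatives Serpinb9b, Serpinb9c, Serpinb9d, Serpinb9e and Serpinb9g, lie between Serpinb6b and Serpinb6a. Their differences ranged from -0.24 for Serpinb9d to 0.27 for Serpinb9b, with limma adjusted p of 0.664 or more. Serpinb9d and Serpinb9g were read by 1 probe set each. The median difference of the 7 was 0.04, with 4 higher, beside a median of -0.05 over all genes.

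The genes flanking the clusters were looked at next, 5 protein-coding genes on each side of each cluster. Of these 20, 12 were measured and none passed the test (limma), with 0 at an unadjusted p under 0.05, beside 11.8% of all genes. Foxf2, Foxc1, Wrnip1 and Ripk1, 4 of the 12, had no overlap between genotypes, beside 18.7% of all genes. Beside the chromosome 1 cluster, Kdsr, an enzyme of sphingolipid synthesis, had a difference of -0.64 (adjusted p of 0.492), the protein phosphatase gene Phlpp1 -0.45, the apoptosis inhibitor gene Bcl2 0.31 and Vps4b, of endosomal sorting, -0.08. Beside the chromosome 13 cluster the differences ran from -0.94 for Tubb2a, read by 2 probe sets, to 0.33 for Foxf2. Ripk1, a kinase of cell death signalling next to that cluster, had a difference of -0.53 (adjusted p of 0.501). None of the flanking genes on the far side of the chromosome 1 cluster was among the measured genes.

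Proteases and other inhibitors that meet these serpins were taken from lists. With the 7 other clade B genes these held 104 measured genes, of which 3 rose and 1 fell (limma adjusted p at or under 0.05). Over all genes 1.16% passed (0.328% that rose and 0.833% that fell). The lists were chosen with earlier results of these data known. So nothing is read from their counts of genes that passed, had an unadjusted p under 0.05 or had no overlap. Among 17 measured genes of plasminogen activation, the system that Serpinb2 restrains, 2 rose and 15 did not pass. In the limma fit 5 of the 17 had an unadjusted p under 0.05, beside 11.8% of all genes. The genotypes did not overlap in 8 of the 17, beside 18.7% of all genes. Serpine2, or protease nexin 1, which inhibits thrombin and plasminogen activators, read 5.39, 5.06 and 4.74 in wild type and 7.09, 7.58 and 8.43 in K14ΔNLef1. It rose by 2.64 (SE 0.34, limma adjusted p of 0.0142). Vldlr, a receptor that takes up protease and serpin complexes, read 5.70, 6.17 and 5.83 in wild type and 7.91, 8.48 and 8.57 in K14ΔNLef1. It rose by 2.42 (SE 0.23, limma adjusted p of 0.00361). Without wild type replicate 2 or 3 Serpine2 missed the threshold, with adjusted p of 0.0764 and 0.0848, while Vldlr passed in all 6 fits with an array left out.

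The target proteases of Serpinb2 did not pass. Plau, the gene of urokinase, read 7.53, 8.05 and 7.71 in wild type and 6.45, 6.70 and 7.15 in K14ΔNLef1. All transgenic values were lower, and its difference was -0.99 (SE 0.24, limma adjusted p of 0.125). Plat, the gene of tissue plasminogen activator, had a difference of -0.49 and the urokinase receptor gene Plaur one of 0.60, both with overlap between genotypes. The median of the list was -0.06.

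Of 14 measured epidermal and other serine proteases, 1 rose and 1 fell. In the limma fit 5 of the 14 had an unadjusted p under 0.05, beside 11.8% of all genes. The genotypes did not overlap in 8 of the 14, beside 18.7% of all genes. Prss23 fell by 2.33 (SE 0.24, limma adjusted p of 0.00525) and passed with any array left out. Masp1, a protease of the lectin pathway of complement, read 6.76, 6.75 and 6.70 in wild type and 7.87, 8.33 and 8.87 in K14ΔNLef1. It rose by 1.62 (SE 0.26, limma adjusted p of 0.0276). It passed in 1 of the 6 fits with an array left out, without K14ΔNLef1 replicate 1, and the adjusted p without wild type replicates 1, 2 and 3 was 0.121, 0.126 and 0.146, and 0.0838 and 0.0527 without K14ΔNLef1 replicates 2 and 3. With the replicate number as a block its adjusted p was 0.0649. Kallikreins, which cut the junctions of cornified cells, did not pass, with Klk7 at 0.20 and Klk9 at -0.65.

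No gene of the cathepsin, immune granule protease or other inhibitor lists passed (limma). These lists had 14, 18 and 17 measured genes, with 4, 1 and 2 at an unadjusted p under 0.05, beside 11.8% of all genes. The genes with the smallest p were Ctso, a cysteine cathepsin, with -0.86 (adjusted p of 0.0967), Gzmc, a granzyme of cytotoxic lymphocytes, with 1.72 (0.231) and Timp1, an inhibitor of matrix metalloproteinases, with 0.73 (0.149). Prtn3 and Ctsg, neutrophil proteases of the kind that Serpinb1a and Serpinb6a inhibit, had differences of 0.12 and 0.18. Of 18 serpins of other clades, 1 rose, the Serpine2 already described, and 17 did not pass. Of these 18, 3 had an unadjusted limma p under 0.05.

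**Figure D5:**
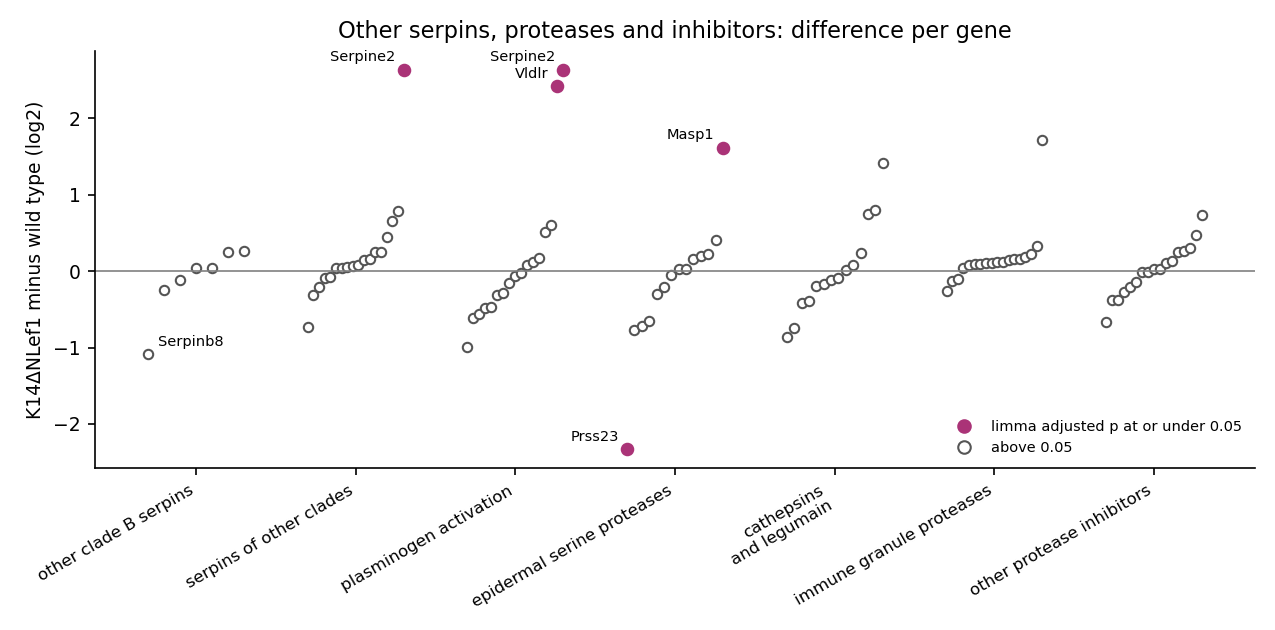
Difference per gene (K14ΔNLef1 minus wild type, log2, y axis) in the lists of other serpins, proteases and inhibitors, with filled points at a limma adjusted p at or under 0.05 and Serpine2 shown in both lists that hold it. Serpine2, Vldlr and Masp1 are the filled points above 0 and Prss23 the one below, and Serpinb8 is an open point at -1.09.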

How the data were processed

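Keratinocyte RNA of 3 wild type and 3 K14ΔNLef1 samples was amplified, labelled with biotin and hybridised to exon arrays, per the labels' protocols. The deposited values are linear intensities per probe set, and the submitters' processing notes name mm9, Affymetrix Power Tools and RMA. Versions and filters are not given in the sources used here. Values were first put on the log2 scale, since all deposited intensities have a log2 of 5 decimals to within 7.2e-10. Of 114330 probe sets, 109751 had 1 symbol, 834 several and 3745 none listed. Symbols came from the platform annotation, with 1228 updated through GRCm38.p6, in which 11245 of 11280 were found. Gene order was taken from that table, with no conversion between builds.

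Gene values are means over probe sets with no filter on low values. The all-gene test used R 4.3.3 and limma 3.58.1, with eBayes after lmFit. It was two-sided, p-values were adjusted by Benjamini-Hochberg, the threshold was 0.05, and it was tested on simulated data. Standard errors come from that fit. The number of arrays limits the precision. The p-values set each difference against the spread between these samples, with the variance of each gene moderated toward that of all genes. The 8 genes and all lists were chosen with earlier results of these data known. Named genes are all clade B serpins, list genes that passed or, where none did, had the smallest p, flanking genes, and the 3 closest profiles. A few other list genes (Plau, Plat, Plaur, Klk7, Klk9, Prtn3, Ctsg) are named for their known relation to these serpins, chosen after their values were seen. Alternatives were the median or brighter probe sets, array scaling, a filter on dim genes, eBayes settings, array weights, blocks and left-out arrays. Python 3.11.15, pandas 2.3.3 and matplotlib 3.10.9 were used.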

Additional observations from a re-analysis of the deposited data

How the results depend on the processing

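All 8 genes but Serpinb1a and Serpinb6a kept their direction under every alternative run. With the median of probe sets Serpinb7 was at -3.58 and Serpinb1a at -0.34, the only differences of the 8 genes that moved by more than the replicate SD. The median over the 8 genes ranged from -0.24 to 0.19 with 1 array left out, so its sign is not settled. Shifting the arrays to the same median moved the median of all genes from -0.05 to 0.05 and quantile normalization moved it to 0.06. The median over the 8 genes was then 0.02 and 0.03. The number of genes that passed was 131, and 234 with arrays at the same median (101 higher and 133 lower, against 37 and 94), 201 with quantile normalization (89 higher and 112 lower), 1296 with array weights and 75 with the replicate number as a block. It was 28 to 239 with 1 array left out and 238 without K14ΔNLef1 replicate 1 with quantile normalization, which was chosen after seeing the data. Of the 104 list genes 4 passed, 21 with array weights and 2 to 6 with 1 array left out. With genes below the 25th percentile left out, 61 list genes were tested and 4 passed: Serpine2 was no longer tested and Serpinb8 passed (limma adjusted p of 0.0486). The causes were not tested. Array weights gave K14ΔNLef1 replicate 1 a weight of 0.150 and replicate 2 one of 5.18, against 0.61 for replicate 3, and of the flanking genes Bcl2 passed in that fit (0.62, limma adjusted p of 0.0274). The labels name no pairs. Deviations of same-numbered arrays correlated at -0.16, -0.17 and 0.04, and those of arrays with adjacent sample numbers at 0.20, -0.07 and -0.01. Each deviation is taken from the mean of the 3 arrays of its genotype. These correlations are therefore not independent and cannot settle whether samples were paired. With that replicate block 75 genes passed, and of the named list genes only Masp1 lost its call (adjusted p of 0.0649). A block by adjacent sample numbers changed no call of a named list gene. With 3 arrays a genotype, small differences such as that of Serpinb6a cannot be told from the spread between arrays, and no detection call was given for dim probe sets.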
